A study of Arabidopsis thaliana with 48 samples.

Results

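Of the 33323 genes counted in these seedling libraries, 40 kept a raised transcript level up to 52 h after acclimation both in the wild type and in the double mutant that lacks functional HSFA2 and HSFA3. They included 6 small heat shock protein genes, 2 galactinol synthase genes, 5 regulators of transcription or RNA, 2 calcium-binding proteins, 7 metabolic enzymes and 8 nearly identical repeat copies annotated as pseudogenes. The remaining 10 were 1 J-domain protein gene and 9 genes for transport, the cell surface or other roles. The members were selected on measured values. CPM is a gene's count over the summed gene counts of its library, times 1000000, and L is the log2 ratio of group mean CPM plus 1 between a time point and the control (NTC) of the same genotype. A gene was kept if L exceeded 0.8 at all 3 times in Col (4 h, 28 h, 52 h) and at the later 2 in hsfa2 hsfa3, with the lowest 52 h library above the highest NTC library in both genotypes. All values of Col, and the NTC, 28 h and 52 h values of the double mutant, are therefore given as a description without a test. The 27 libraries of hsfa2, hsfa3 and the double mutant at 4 h took no part in the choice, and the tests compare only these. The spread behind the tests was estimated over all 48 libraries, including the 21 that the choice used.

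The series held 48 libraries in 16 groups of 3 replicates. Whole seedlings of Col (accession Col-0), hsfa2 (allele hsfa2-1), hsfa3 (allele hsfa3-1, an insertion line) and hsfa2 hsfa3, all in the Col-0 background, were left untreated (NTC) or acclimated when 4 d old (ACC), with 1 h at 37 °C followed by a rest of 90 min at 23 °C and then 45 min at 44 °C, and frozen 4 h, 28 h or 52 h later. Each mutant is represented by a single allele, and the age of the NTC seedlings at harvest is not given in the sources used here, so treatment and age cannot be told apart in a comparison with NTC. The study's methods call the replicates biological, and p-values measure the spread between them. Gene counts ran from 2.77399e+07 to 3.4059e+07 per library, so that a floor of 3 counts corresponded to 0.0881 to 0.108 CPM. HSFA2 reached 1190 ± 121 CPM (SD, n = 3) at 4 h in Col against 56.4 ± 13.4 in hsfa2 and 55.1 ± 2.97 in the double mutant, and HSFA3 reached 864 ± 77.8 CPM in Col against 152 ± 1.05 in hsfa3 and 191 ± 5.17 in the double mutant. Transcript of both mutated genes was thus still counted after heat, at lower levels. The photosynthesis gene RBCS1A lay between 4624 and 15108 CPM in all libraries, while the senescence marker SAG12 and the pollen gene VGD1 did not exceed 0.036 and 0.03 CPM. In whole seedlings, fewer cells of a type and less RNA per cell cannot be told apart.

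Heat shock factors (HSFs) are transcription factors that bind heat shock elements, arrays of alternating GAA and TTC units, and switch on chaperone genes within minutes of heat. Most of these genes fall back soon after the temperature returns to normal, while a subset, the memory genes, stays active for days. HSFA2 and HSFA3 are heat-induced members of the family that keep such genes active in Arabidopsis. Small heat shock proteins bind unfolding proteins and hold them in a state from which other chaperones can refold them.

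By the same limits, 133 genes showed sustained induction in Col, and 93 of them were not kept in the double mutant. At 52 h 85 of the 93 were not above the limit on L there, 60 were not above it at 28 h, and 3 passed both but had overlapping replicates. The chaperone members were mainly small heat shock protein genes. The list of 18 small heat shock protein genes contributed 14 genes with sustained induction in Col and 6 members. No member came from the lists of HSP70, HSP90, HSP100 and HSA32 (3 genes sustained in Col), of co-chaperones and coactivators (4), of heat shock factors (2), of dehydration, cold and ABA response (3) or of redox enzymes (1). Both genes of galactinol, raffinose and inositol synthesis that were sustained in Col were members. These lists were set up with results of these data known, so their counts describe how the members divide and nothing more. The members lay on all chromosomes, with 14 on chromosome 1, 3 on chromosome 2, 6 on chromosome 3, 3 on chromosome 4 and 14 on chromosome 5. Of the 40, 10 overlapped another annotated gene (HSP17.4, GolS1, GolS4, TCH3, BZIP9, AT5G43440, PTR5, ABCB21, AT1G33600 and AT1G11265). The strand setting behind the counts is not given in the sources used here. Reads at an overlap could have been added to these counts or set aside as ambiguous. For 8 of the 10 members an overlapping gene was itself counted.

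The induction of the members differed widely in size and in how much of it was left in the double mutant. Over all 40 members the median L was 3.28 at 4 h, 2.15 at 28 h and 1.79 at 52 h in Col, and 3.00, 1.66 and 1.32 in hsfa2 hsfa3, whereas the median over all 28802 genes with a count ran from -0.01 to 0.01 over the genotypes and times. For the 93 genes not kept, the median in the double mutant went from 1.97 to 0.61 and 0.40. The difference in L between the double mutant and Col at 52 h had a median of -0.49 over the members. It was below -1 for 10 members, within 0.5 of 0 for 20 and above 0 for 9. The small heat shock protein genes had the lowest class median, -1.89, with 5 of 6 below -1. The 5 regulators had a median of 0.16 and the 8 repeat copies one of -0.63. The heat map of L by genotype and time shows these groups side by side.

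**Figure D1:**
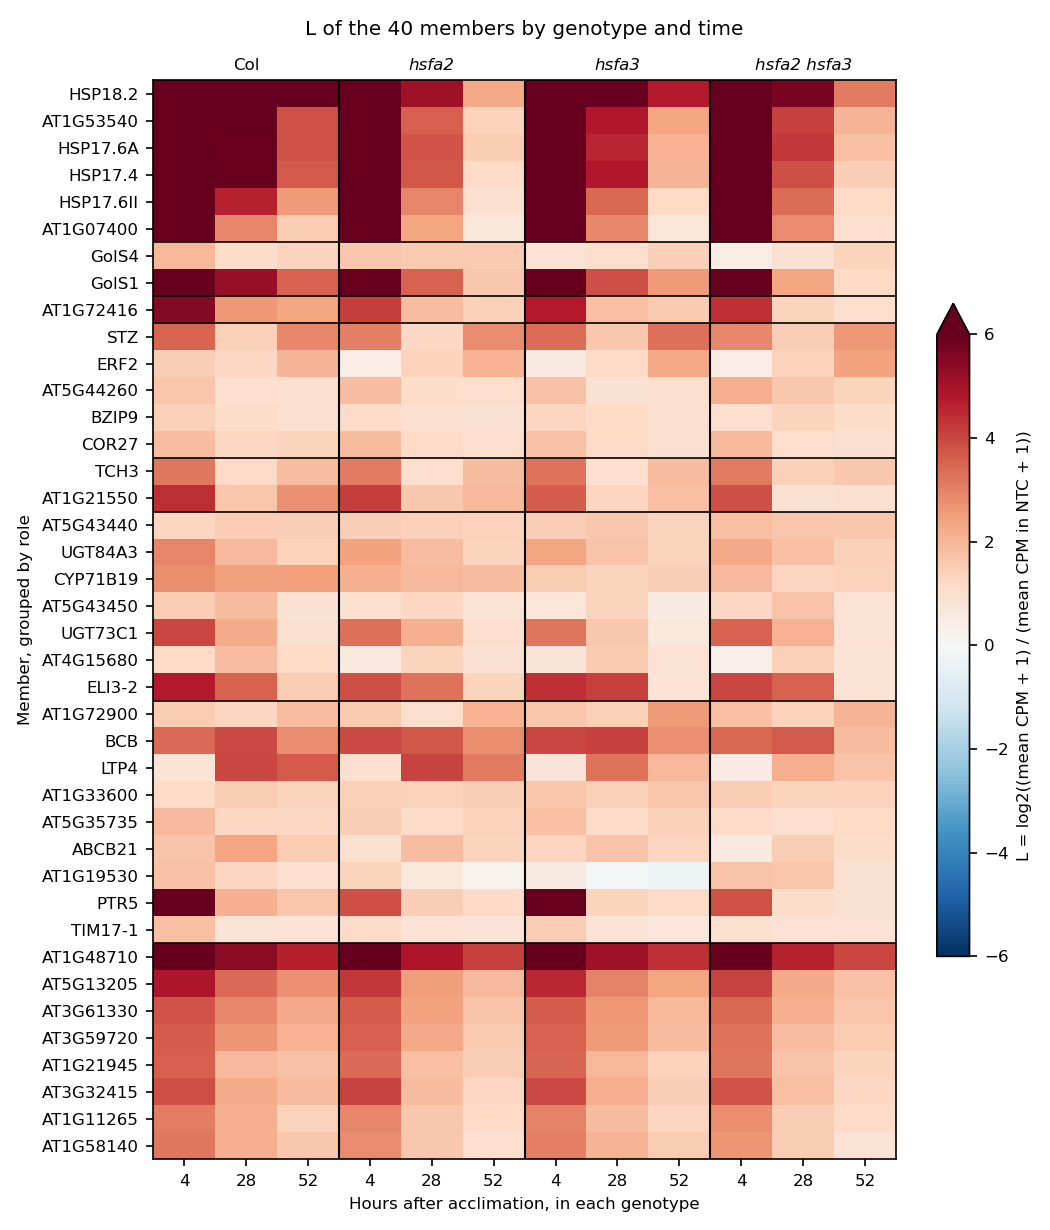
Heat map of L, the log2 ratio of group mean CPM plus 1 to that of NTC in the same genotype, for the 40 members (vertical axis, grouped by role) by hours after acclimation (4, 28, 52) in each of the 4 genotypes (horizontal axis), with colours saturated at 6. The small heat shock protein genes are dark at 4 h in every genotype and fade faster in the mutants. Their median L was 11.19, 6.06 and 3.76 in Col and 10.70, 3.98 and 1.65 in hsfa2 hsfa3. The regulators have similar shades in all genotypes, except ERF2 at 4 h (L of 1.48 in Col and 0.42 to 0.54 in the mutants).

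Whether the members stayed induced when only one of the factors was missing was tested in the single mutants, whose libraries the choice did not use. A gene was called induced if its log2 fold change against NTC of the same genotype was above 1 with an adjusted p below 0.05 in the quasi-likelihood test of edgeR, adjusted by Benjamini-Hochberg over all genes tested. In hsfa2, 30 of the 32 protein-coding members were called at 4 h (15.4% of all 21096 protein-coding genes tested), 28 at 28 h (2.14%) and 21 at 52 h (1.79%). In hsfa3 the numbers were 29 at 4 h (14.8%), 28 at 28 h (2.52%) and 21 at 52 h (1.75%). Among the 90 protein-coding genes sustained in Col but not kept in the double mutant, 79, 51 and 22 were called in hsfa2 and 81, 64 and 30 in hsfa3, and the difference between these sets was not tested. The members were chosen in a genotype that carries both mutant alleles, so their calls in the single mutants are not independent support for the choice. At 52 h 18 members were called in both single mutants, 3 in hsfa2 only, 3 in hsfa3 only and 8 in neither. The 14 members called in all 6 comparisons were HSP18.2, GolS1, GolS4, AT1G72416, AT1G21550, CYP71B19, AT5G43440, PTR5, ABCB21, LTP4, BCB, AT5G35735, TIM17-1 and AT1G33600. ERF2 joined them at 28 h and 52 h. The share of all genes that met such joint conditions was not computed, so these counts describe the members only. Without replicate 3 in every group, 18 members were called in hsfa2 at 28 h, 10 at 52 h, and 9 in hsfa3 at 52 h. That fit has fewer libraries and its share over all genes was not computed. The lower counts can therefore not be read as particular to the members.

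All 8 repeat copies were called at each of the 3 times in both single mutants, in a fit over all 21765 genes that passed the filter on low counts, in which 15.9%, 2.24% and 1.81% of genes were called in hsfa2 and 15.5%, 2.63% and 1.77% in hsfa3. Without replicate 3 in every group, 3 copies were called in hsfa2 at 52 h, again with no share over all genes computed.

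**Figure D2:**
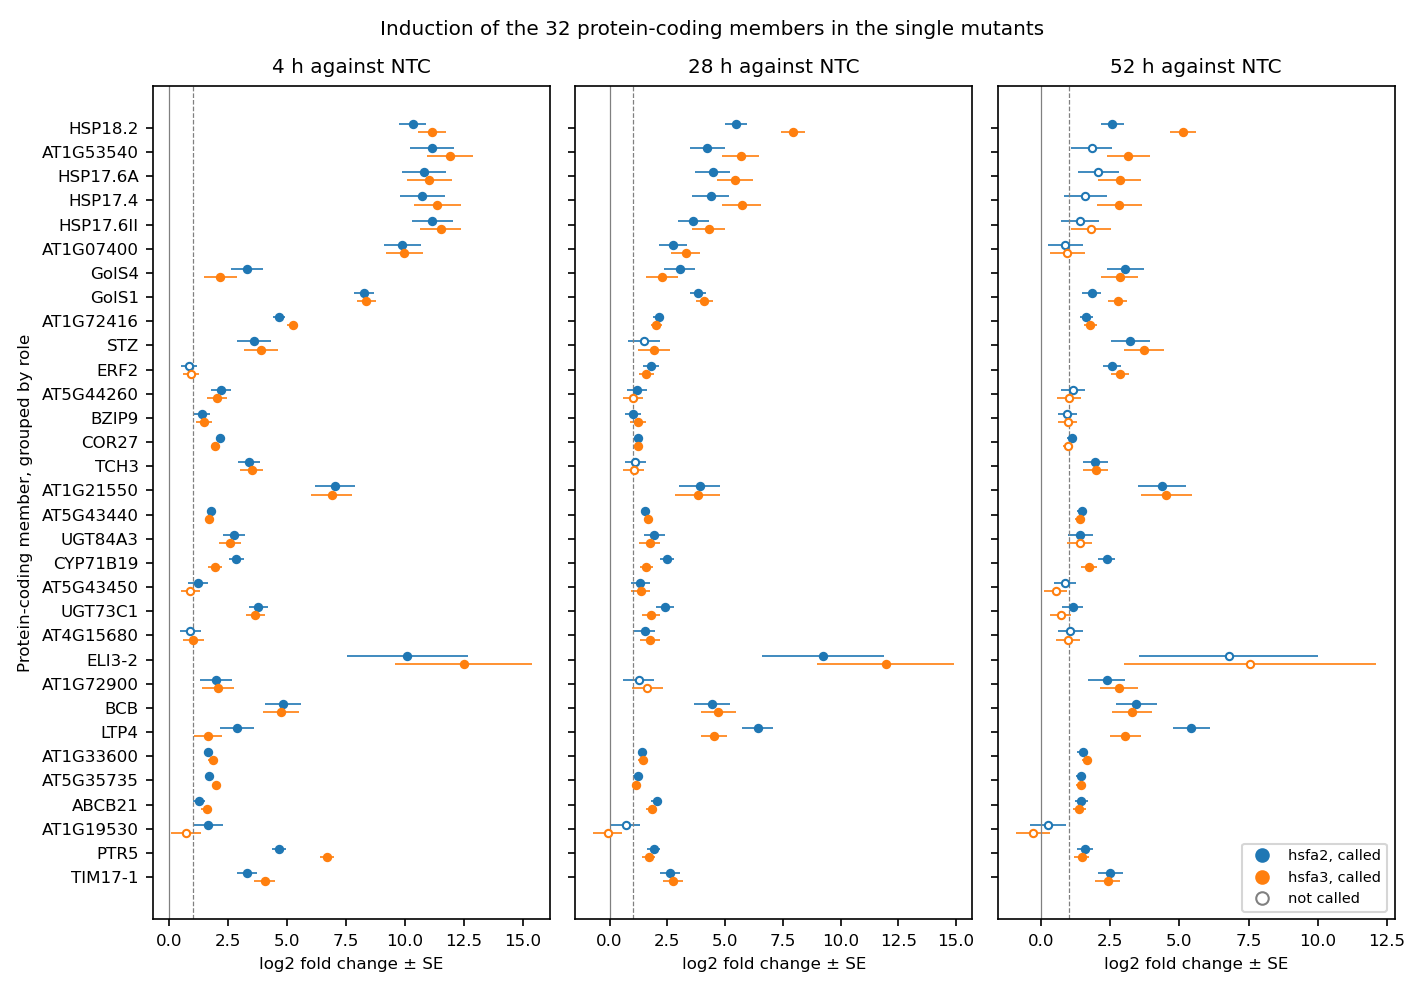
Log2 fold change against NTC of the same genotype (horizontal axes, with bars of 1 SE) of the 32 protein-coding members (vertical axis, grouped by role) in hsfa2 (blue) and hsfa3 (orange), with a panel for each time. Filled points are called, open points are not, and the dashed line marks the limit of 1. At 52 h 21 points are filled in each genotype, and the fitted values of ELI3-2 depend on NTC groups with 0 or 1 count.

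Between 4 h and 28 h, 16 of the 32 protein-coding members were lower in hsfa2 (33.5% of all genes tested) and 3 were higher (34.9%), and in hsfa3 17 were lower (32.9%) and 1 was higher (33.8%). The 3 members that rose in hsfa2 were LTP4, ABCB21 and ERF2, and LTP4 was the one that rose in hsfa3. From 28 h to 52 h, 6 members were lower in hsfa2 (1.38%) and 0 higher (1.34%), and 7 were lower in hsfa3 (1.86%) and 1, ERF2, higher (1.71%). The genes that still fell in this second interval were GolS1 in both mutants, all 6 small heat shock protein genes in hsfa3 and all of them but AT1G07400 in hsfa2. These calls depended on the fit: with the 27 libraries outside the choice alone, 2 members were lower in each mutant, and with an adjusted p below 0.01 in edgeR 2 were lower in hsfa2 and 1 in hsfa3. DESeq2 also called 0 members higher in hsfa2. An unadjusted p of 0.05 was passed in edgeR, in either direction, by 13 of the 32 members in hsfa2 and 14 in hsfa3, and by 3397 and 3645 of all 21096 genes. Without replicate 3 in every group, 0 members passed as lower in either mutant, and without replicate 2 in every group 3 passed in hsfa2. All 8 repeat copies were lower at 28 h than at 4 h in hsfa2 (34.2%) and in hsfa3 (33.8%). From 28 h to 52 h 0 were called lower in hsfa2 (1.46%) and 0 in hsfa3 (1.82%), and 0 passed an unadjusted p of 0.05 in edgeR or the adjusted threshold in DESeq2. For the fall of the copies from 4 h to 28 h, 4 passed in hsfa2 without replicate 3, and 3 passed in hsfa3 without replicate 2 or without replicate 3. The share of all genes passing was not computed for the alternative fits.

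PTR5, which encodes a transporter of dipeptides, was the one member called for a difference in induction between the single mutants. At 4 h its libraries stood at 267, 244 and 258 CPM in Col and at 206, 203 and 176 CPM in hsfa3. They stood at 58.9, 37.8 and 32.8 CPM in hsfa2 and at 56.4, 37.5 and 45.4 CPM in the double mutant. Both genotypes with the hsfa2 allele lay far below the genotypes without it, and the ranges did not overlap. All 12 NTC libraries lay between 1.8 and 3.13 CPM. The induction at 4 h was 4.66 ± 0.28 on the log2 scale in hsfa2 and 6.68 ± 0.29 in hsfa3, a difference of -2.02 ± 0.37 (edgeR, adjusted p = 0.0019), and 0.45% of all genes tested were called in this comparison. Without replicate 2 or without replicate 3 in every group the difference was -1.89 or -1.99 and lost its call (edgeR, adjusted p = 0.32 and 0.17). The libraries of the single mutants overlapped at 28 h, when they stood at 9.43, 5.97 and 6.75 CPM in hsfa2 and at 9.89, 4.94 and 6.07 CPM in hsfa3, and the difference in induction was 0.21 at 28 h and 0.12 at 52 h. PTR5 overlaps the annotated gene AT5G01175.

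For the other members no difference between the single mutants passed the threshold. At 28 h and at 52 h, 0 of the 32 protein-coding members and 0% of all genes were called, and DESeq2 also called 0 members. In edgeR 3 members passed an unadjusted p of 0.05 at each time. So did 224 of all 21096 genes at 28 h and 220 at 52 h. Both numbers of genes are lower than this threshold would pass if no gene differed, so the comparison was conservative. The lack of calls therefore does not show that the single mutants were alike. No repeat copy was called at 4 h (0.464% of all genes in their fit), at 28 h or at 52 h (0% each). DESeq2 also called 0, and 0 passed an unadjusted p of 0.05 in edgeR. For AT1G21945 and AT1G58140 the NTC groups of both single mutants held 0 counts. Their SE at 4 h was 312 and 685 on the log2 scale, so this comparison could not have called them. For the other copies the SE at 4 h ran from 0.96 (AT5G13205) to 2.86 (AT1G11265). A comparison of levels at 4 h between the double mutant and hsfa2 called 0 protein-coding members (0.0853%) with edgeR and with DESeq2, with 1 at an unadjusted p of 0.05, and 0 copies (0.119%) with either tool, with 0 at an unadjusted p of 0.05. Against hsfa3 it called 1 protein-coding member (2.5%) and 0 copies (2.47%, also 0 with DESeq2 and 0 at an unadjusted p of 0.05). The 1 member was again PTR5, whose level was lower in the double mutant by -1.99 ± 0.23 on the log2 scale (edgeR, adjusted p = 8.4e-08), against a difference of 0.12 ± 0.22 to hsfa2.

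The 6 small heat shock protein members were the cytosolic class I genes HSP18.2, HSP17.4, AT1G53540 and AT1G07400 and the class II genes HSP17.6A and HSP17.6II. At 4 h their L lay between 9.71 and 11.77 in Col and between 9.88 and 11.22 in the double mutant. HSP18.2 had the longest tail. Its libraries stood at 6776, 7235 and 7233 CPM at 4 h in Col, at 5471, 3056 and 2656 CPM at 28 h and at 540, 275 and 424 CPM at 52 h, from 2.39, 1.68 and 1.35 CPM in NTC. The double mutant had 3851, 4268 and 3649 CPM at 4 h, at 96.1, 136 and 121 CPM at 28 h and at 17.3, 24.5 and 15.3 CPM at 52 h, from 1.16, 1.86 and 0.937 CPM. Libraries of these genotypes did not overlap at any of the 3 times after acclimation, and the 52 h mean of the double mutant was 4.60% of that of Col, yet every 52 h library of it was above every NTC library. In hsfa2 the 52 h libraries stood at 26, 20.2 and 18 CPM, overlapping those of the double mutant, and in hsfa3 at 151, 75.1 and 102 CPM, with no overlap between these single mutants.

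HSP18.2 was induced by 2.59 ± 0.43 on the log2 scale at 52 h in hsfa2 (edgeR, adjusted p = 0.00012) and by 5.12 ± 0.47 in hsfa3 (adjusted p = 5.1e-09). Without replicate 3 in every group the value in hsfa2 was 2.27 and lost its call (adjusted p = 0.052 in edgeR). The difference between these inductions was -2.54 ± 0.59, with an adjusted p of 0.9999 in edgeR after an unadjusted p of 0.00013, since no gene passed the adjustment in that comparison. Without the replicate 2 NTC libraries of the single mutants it was -2.06 (adjusted p = 0.99998 in edgeR). In replicate 2 of hsfa2 and of hsfa3, NTC stood at 7.78 and 5.7 CPM for HSP18.2, against 0.937 to 2.39 CPM in the other 10 NTC libraries. Summed over the 6 genes, these libraries held 29.9 and 18.1 CPM and the other 10 held 3.11 to 6.11 CPM. Over the list of 18 they held 143 and 116 CPM against 83.5 to 92.6 CPM.

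AT1G53540 was one of the genes with a high replicate 2 NTC library in hsfa2. In Col it stood at 31.2, 12.3 and 9.97 CPM at 52 h and at 0.417, 0.245 and 0.301 CPM in NTC. The 52 h libraries of the double mutant stood at 7.17, 4.44 and 3.47 CPM and its NTC libraries at 0.716, 0.443 and 0.181 CPM. In hsfa2 they stood at 11.3, 3.46 and 3.69 CPM at 52 h, and the NTC libraries at 0.547, 4.59 and 0.125 CPM, so that the groups overlapped through 1 control library. Its induction at 52 h in hsfa2 was 1.84 ± 0.74 on the log2 scale and not called (edgeR, adjusted p = 0.10). Leaving out the replicate 2 NTC libraries of hsfa2 and hsfa3, a choice made after seeing the data, gave 4.22 with an adjusted p of 0.0051 in edgeR. Taking out controls in which these genes were high raises their fold changes by construction. Such values describe the dependence on these libraries and are no test of why a call was missing.

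In the same way, at 52 h in hsfa2, HSP17.6A went from 2.07 ± 0.74 (edgeR, adjusted p = 0.067) to 4.22 (0.0074), HSP17.4 from 1.60 ± 0.78 (0.19) to 3.61 (0.026), and HSP17.6II from 1.41 ± 0.70 (0.20) to 3.14 (0.025). With all libraries 1 of the 6 genes was called at 52 h in hsfa2 and 4 were called in hsfa3, where HSP17.6II and AT1G07400 were not. AT1G07400 had the smallest change at 52 h, 0.89 ± 0.62 in hsfa2 and 0.96 ± 0.63 in hsfa3. Its NTC libraries stood at 1.44, 5.92 and 1.38 CPM in hsfa2 and its 52 h libraries at 9.37, 3.16 and 3.3 CPM. All 6 genes were called at 4 h and at 28 h in both single mutants, with log2 fold changes at 28 h of 2.73 to 5.48 in hsfa2 and 3.29 to 7.95 in hsfa3. They were also all lower at 28 h than at 4 h.

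HSP17.6A and HSP17.6II are neighbours on chromosome 5, at 3883957 to 3884838 and 3882231 to 3883111 on the minus strand (TAIR10.1). HSP17.6A stood at 30.3, 18.7 and 15.3 CPM at 52 h in Col and at 6.07, 2.24 and 2.99 CPM in the double mutant, against at most 0.686 and 0.448 CPM in NTC. HSP17.6II stood at 13.6, 5.53 and 3.23 CPM at 52 h in Col and at 3.75, 1.49 and 1.33 CPM in the double mutant, against at most 0.551 and 0.473 CPM in NTC. Replicate 1 was the highest of the 52 h libraries for both genes in both genotypes. HSP17.4 on chromosome 3 repeated this order, with 29.1, 11.2 and 11.1 CPM at 52 h in Col and 4.73, 2.15 and 2.69 CPM in the double mutant.

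Heat shock elements could be read directly near the starts of some of these genes, and are printed to show what the sequence next to a member looks like. Units that belong to a pair facing each other across a spacing of 2 bases, GAANNTTC or TTCNNGAA, are in capitals in these 50-base stretches of the TAIR10.1 assembly (RefSeq), written 5′ to 3′ on the gene's strand.
AT1G53540, chr1:19980227-19980276, plus strand: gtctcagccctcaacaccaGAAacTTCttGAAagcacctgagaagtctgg
HSP17.4, chr3:16984855-16984904, minus strand: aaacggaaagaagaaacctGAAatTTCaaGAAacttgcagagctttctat
HSP17.6A, chr5:3884832-3884881, minus strand: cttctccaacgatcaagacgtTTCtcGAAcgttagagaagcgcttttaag
GolS1, chr2:19370548-19370597, minus strand: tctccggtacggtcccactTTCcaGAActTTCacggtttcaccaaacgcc
AT1G53540, HSP17.4 and GolS1 each show a run of 3 alternating units, while HSP17.6A shows a single pair. The stretches begin 72, 37, 43 and 119 bases before the annotated start, respectively. HSP18.2, AT1G07400 and HSP17.6II had no pair from 500 bases before to 50 bases after their annotated starts, which says only that these letters are not in this window.

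**Figure D3:**
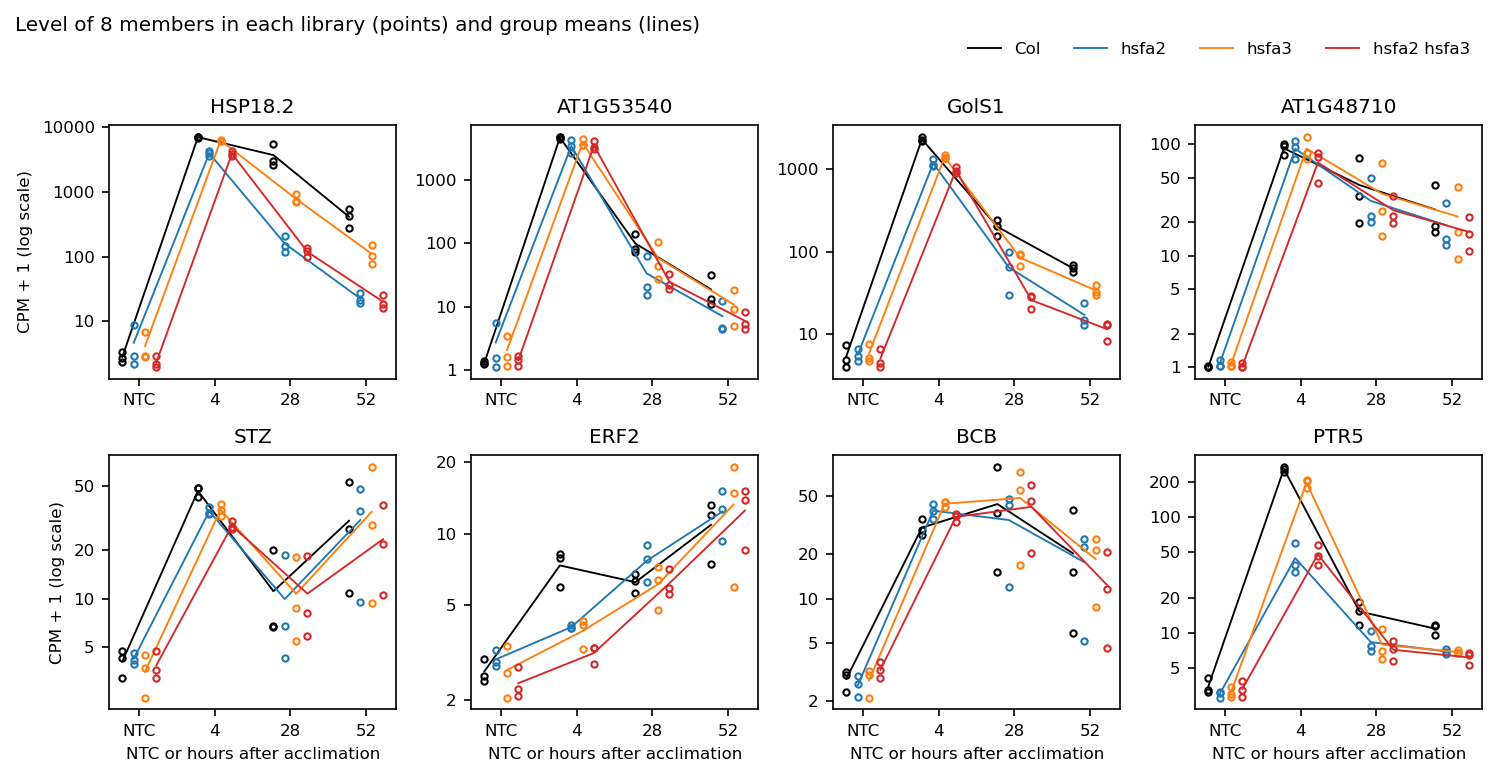
CPM plus 1 on a log axis (vertical) of 8 members in every library (points) by treatment and time (NTC, then 4, 28 and 52 h, horizontal), with lines through the group means of Col (black), hsfa2 (blue), hsfa3 (orange) and hsfa2 hsfa3 (red). HSP18.2 is higher in Col than in hsfa2 hsfa3 at 4, 28 and 52 h (413 CPM against 19 CPM as means at 52 h), with hsfa2 near hsfa2 hsfa3 at 52 h, STZ and ERF2 do not separate them at 52 h, and PTR5 separates the genotypes with and without the hsfa2 allele at 4 h.

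Galactinol synthases make the first intermediate of raffinose sugars, which protect cells under heat, cold and drought. GolS1 stood at 2269, 2213 and 2514 CPM at 4 h in Col and at 66.8, 55.7 and 62.1 CPM at 52 h, from 6.26, 2.91 and 3.79 CPM in NTC. For the double mutant the values were 1057, 908 and 959 CPM at 4 h and at 11.7, 7.04 and 12.2 CPM at 52 h, from 5.55, 2.9 and 3.44 CPM, so its 52 h mean was 16.8% of that in Col. In each single mutant the libraries of every time lay above NTC. The induction at 52 h was 1.83 ± 0.33 on the log2 scale in hsfa2 (edgeR, adjusted p = 0.00037) and 2.77 ± 0.34 in hsfa3 (adjusted p = 1.0e-06), and the former was not called without replicate 3 in every group (1.79, adjusted p = 0.097). Of the 8 genes on the list of galactinol, raffinose and inositol synthesis, 5 were called at 4 h in each single mutant and 2 at 28 h and at 52 h, and these 2 were GolS1 and GolS4.

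GolS4 behaved otherwise. Its level was low, at 6.57, 2.16 and 4.25 CPM at 4 h and 1.75, 2.16 and 3.12 CPM at 52 h in Col, and at 1.42, 0.563 and 0.449 CPM and then 2.17, 1.43 and 3.66 CPM in the double mutant. All of the NTC libraries were at or below 0.684 CPM. The 52 h libraries of the double mutant overlapped those of Col. The lowest of them, at 1.43 CPM, was level with its highest 4 h library, at 1.42 CPM. The induction at 52 h was 3.05 ± 0.68 in hsfa2 (edgeR, adjusted p = 0.0027) and 2.84 ± 0.67 in hsfa3 (adjusted p = 0.0058), and in hsfa3 it was no longer called without the replicate 2 NTC libraries of the single mutants (2.41, adjusted p = 0.053). The level at 4 h in the double mutant, lower than in hsfa2 by -1.98 ± 0.61 on the log2 scale, was not called (edgeR, adjusted p = 0.61), but with the replicate number as a block it was -1.91 and was called (edgeR, adjusted p = 0.021).

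AT1G72416 encodes a protein with a J-domain, the part of co-chaperones that stimulates HSP70. It stood at 19.4, 22.1 and 25.2 CPM at 52 h in Col and at 6.07, 6.71 and 7.76 CPM in the double mutant, from 3.34, 4.25 and 2.98 CPM and from 2.18, 3.55 and 2.72 CPM in NTC. The genotypes were already apart at 4 h, with 236, 193 and 185 CPM in Col and 89.4, 77.4 and 66.5 CPM in the double mutant. The 52 h libraries of hsfa2 and hsfa3 lay between those of Col and of the double mutant, and AT1G72416 was called in both at all times, with 1.65 ± 0.23 at 52 h in hsfa2 (edgeR, adjusted p = 7.9e-06) and 1.78 ± 0.23 in hsfa3 (adjusted p = 2.2e-06).

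The 8 members annotated as pseudogenes formed 1 family of repeats. Their loci are 3880 to 4295 bases long and share 97.2 to 99.9% of bases between pairs over the aligned parts (median 99.3%). Each locus is flanked on both sides by a direct repeat of 438 to 570 bases, and the 2 repeats of a copy are 97.1 to 100% identical, as is known of retrotransposons with long terminal repeats. A search of the genome with AT1G21945 gave 17 matches of 1000 bases or more, of which 15 fell on the 8 members, and the longest other match had 1372 bases. Counts come from uniquely mapped read pairs, so reads that fit several copies equally were left out, and the levels of single copies are uncertain. Pairs mapping to several places made up 1.46 to 2.34% of all pairs in a library.

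The upstream repeat holds pairs of heat shock element units. The same 50 bases were found in 5 of the 8 copies (AT1G48710, AT1G11265, AT3G32415, AT3G61330 and AT5G13205), and the other 3 copies differed from them at 1 or more bases. They are printed because a pair in this stretch was found in all 8 copies. Capitals mark units of a TTCNNGAA pair.
AT1G48710, chr1:18013275-18013324, plus strand: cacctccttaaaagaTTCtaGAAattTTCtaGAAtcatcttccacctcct
AT3G59720, chr3:22059648-22059697, plus strand: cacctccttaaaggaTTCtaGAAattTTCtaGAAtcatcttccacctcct
AT1G21945, chr1:7717469-7717518, plus strand: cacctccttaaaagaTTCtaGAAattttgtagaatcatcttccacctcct
AT1G58140, chr1:21529692-21529741, minus strand: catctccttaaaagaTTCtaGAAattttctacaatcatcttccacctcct
In AT1G21945 and AT1G58140 the second pair of this stretch is not complete. Counted from the annotated start, the stretch runs from position -357 to -308 in these 4 copies (TAIR10.1).

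AT1G48710 had the largest L of all members at 52 h in the double mutant, 3.99. Its libraries stood at 95.7, 98.8 and 78.6 CPM at 4 h in Col, at 74.1, 18.5 and 33.4 CPM at 28 h and at 41.9, 17.6 and 15.4 CPM at 52 h, while NTC held 1 count in all 3 libraries together. Those of the double mutant stood at 82.4, 76.1 and 43.6 CPM at 4 h, at 33.2, 18.8 and 21.7 CPM at 28 h and at 21.1, 10.1 and 14.8 CPM at 52 h, and NTC held 3 counts. The genotypes overlapped at every time after acclimation. At 52 h the ratio to NTC was 2485 in Col, with a 95% counting interval from 446 to 98176, and 514 in the double mutant, from 176 to 2495. These intervals cover counting error only.

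For AT1G21945 all 12 NTC libraries held 0 counts. Against a floor of 3 counts over the group, its level at 52 h was at least 77.6-fold higher in Col, at least 55.6-fold in hsfa2, at least 55.1-fold in hsfa3 and at least 50.4-fold in the double mutant. AT5G13205 was the copy with the most counts in NTC, 0.209 to 0.776 CPM over all 12 libraries, and was induced by 3.11 ± 0.63 on the log2 scale at 52 h in hsfa2 (edgeR, all genes, adjusted p = 0.0011) and by 3.97 ± 0.66 in hsfa3 (adjusted p = 0.00014). In every genotype its NTC libraries lay below all libraries taken after acclimation.

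Summed over the 8 copies, group means were 191 ± 19.7 CPM (SD, n = 3) at 4 h in Col, 79.8 ± 54.7 at 28 h and 48.7 ± 28.3 at 52 h. They were 145 ± 38.3, 46.7 ± 12.4 and 29.4 ± 9.60 CPM in the double mutant, and the means of the single mutants lay between those of Col and of the double mutant at each time. NTC means ran from 0.384 to 0.836 CPM. Libraries of the genotypes overlapped at 28 h and 52 h, where replicate 1 stood above the other replicates in every genotype. It held 81.3 CPM at 52 h in Col and 39.9 CPM in the double mutant, while the lowest library of these groups held 30.1 and 21.1 CPM.

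**Figure D4:**
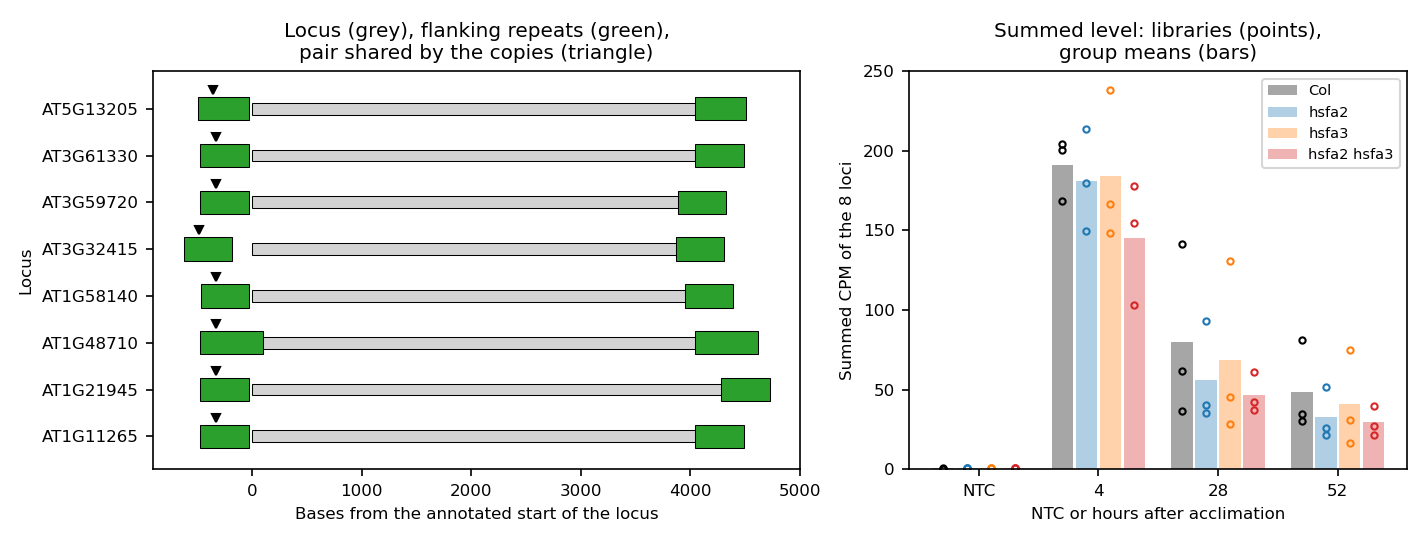
Left, the 8 repeat copies drawn to scale in bases from the annotated start of the locus (grey), with the flanking direct repeats (green, 438 to 570 bases) and the shared unit pair (triangle). Right, the summed CPM of the 8 loci in each library (points) with group means (bars) by treatment and time for the 4 genotypes, where NTC means are at most 0.836 CPM and 52 h means are 29.4 to 48.7 CPM.

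Regulators of transcription or RNA made up 5 members. Their L at 52 h in the double mutant differed from that in Col by -0.37 to 0.37. For BZIP9, AT5G44260 and COR27, with L of 0.95, 0.98 and 1.32 in Col, the rule left little room for a fall. STZ is a zinc finger repressor of stress responses. It stood at 47.4, 47.7 and 41.3 CPM at 4 h in Col, at 5.73, 18.9 and 5.69 CPM at 28 h and at 52.1, 9.88 and 26.1 CPM at 52 h. The double mutant had 26.6, 29.1 and 26.1 CPM at 4 h, 7.09, 4.84 and 17.3 CPM at 28 h and 36.7, 9.57 and 20.7 CPM at 52 h. Replicate 2 was the lowest at 52 h in all 4 genotypes, with 8.34 to 9.88 CPM, but still above every NTC library, of which the highest held 3.76 CPM. STZ was called at 52 h in hsfa2 (3.22 ± 0.70, edgeR, adjusted p = 0.0023) and in hsfa3 (3.72 ± 0.72, adjusted p = 0.00086). Both calls were lost without replicate 1 (edgeR, adjusted p = 0.060 and 0.088) or without replicate 3 (0.13 and 0.076) in every group, and the difference from 28 h to 52 h was not called in either (1.74 ± 0.65 and 1.80 ± 0.64, adjusted p = 0.15 and 0.12).

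ERF2, an ethylene response factor that activates defence genes, had its highest levels at 52 h. ERF2 in the double mutant stood at 2.31, 1.84 and 2.3 CPM at 4 h, at 4.57, 4.9 and 6.13 CPM at 28 h and at 12.9, 7.58 and 14.1 CPM at 52 h, from 1.22, 1.74 and 1.09 CPM in NTC. In Col the 4 h libraries stood at 4.96, 6.87 and 7.25 CPM, above every 4 h library of hsfa2, hsfa3 and the double mutant. This difference from Col was not tested. At 52 h the libraries of Col stood at 11, 6.45 and 12.3 CPM, overlapping those of the double mutant. The induction of ERF2 at 4 h was not called in hsfa2 (0.84 ± 0.33) or hsfa3 (0.93 ± 0.34), since both lie below 1, and it was called at 28 h (1.79 ± 0.33 and 1.59 ± 0.33) and 52 h (2.56 ± 0.33 and 2.87 ± 0.33). The rise from 28 h to 52 h was 1.27 ± 0.31 in hsfa3 (edgeR, adjusted p = 0.014) and 0.76 ± 0.30 in hsfa2 (adjusted p = 0.17).

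BZIP9, a transcription factor of the bZIP class, COR27, a cold-induced component of the circadian clock, and AT5G44260, a CCCH zinc finger protein of the kind that binds RNA, had inductions below those of STZ in Col. COR27 stood at 62.2, 46.2 and 52.4 CPM at 52 h in Col and at 50.9, 30.7 and 41.9 CPM in the double mutant, from 19.5, 23.5 and 19.6 CPM and from 17.9, 24.2 and 20.5 CPM. Its change at 52 h was 1.12 ± 0.18 in hsfa2 (called) and 0.98 ± 0.18 in hsfa3, just under the limit on fold change although the adjusted p was 0.00047 in edgeR. BZIP9 and AT5G44260 were called in both single mutants at 4 h and in neither at 52 h. Their changes at 52 h were 0.95 ± 0.34 and 1.17 ± 0.43 in hsfa2. In hsfa3 they were 0.97 ± 0.34 and 1.03 ± 0.43.

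Calcium-binding members were TCH3, a calmodulin-like protein first known as induced by touch, and AT1G21550, which carries EF-hand motifs. TCH3 stood at 78.3, 42 and 91.6 CPM at 52 h in Col and at 74, 40.1 and 91.9 CPM in the double mutant, with NTC at 14.9, 29.8 and 11.9 CPM and at 18.7, 35.6 and 11.7 CPM. Replicate 2 was the highest NTC library and the lowest 52 h library in both genotypes, so the groups were separated by little. TCH3 was called at 4 h and 52 h in both single mutants, but not at 28 h (1.11 ± 0.45 and 1.04 ± 0.45, edgeR, adjusted p = 0.078 and 0.086). AT1G21550 stood at 8.28, 4.11 and 6.76 CPM at 52 h in Col and at 1.76, 0.507 and 1.45 CPM in the double mutant, from at most 0.241 and 0.209 CPM in NTC. Its L at 52 h in the double mutant differed from that in Col by -1.77. It was called in all 6 comparisons, with 4.38 ± 0.87 at 52 h in hsfa2 and 4.53 ± 0.92 in hsfa3.

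Metabolic enzymes made up 7 members. UGT84A3 and UGT73C1 are glycosyltransferases, CYP71B19 is a cytochrome P450, AT5G43440 and AT5G43450 are neighbouring genes for oxygenases that use 2-oxoglutarate and iron, AT4G15680 is a glutaredoxin and ELI3-2 is an alcohol dehydrogenase induced by elicitors. CYP71B19 was the one with a lower L in the double mutant by more than 1. It stood at 14.5, 10.6 and 12 CPM at 52 h in Col and at 7.11, 4.56 and 5.08 CPM in the double mutant, from at most 1.52 and 1.66 CPM in NTC. The libraries of Col had stood at 16, 15.3 and 15.6 CPM at 4 h, close to their values at 52 h. At 52 h CYP71B19 was called in hsfa2 (2.38 ± 0.30, edgeR, adjusted p = 2.6e-06) and hsfa3 (1.74 ± 0.29, adjusted p = 0.00014).

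AT5G43440 stood at 33.1, 35.9 and 31.4 CPM at 52 h in Col and at 35.6, 30.5 and 28.8 CPM in the double mutant, from 10.6, 11.6 and 11.5 CPM and from 9.58, 10.5 and 9.19 CPM in NTC, and its log2 fold changes in the single mutants lay between 1.42 and 1.79 at all times, each called. At 52 h the libraries of Col and of the double mutant overlapped. AT5G43450, next to it, was not called at 52 h (0.87 ± 0.41 in hsfa2 and 0.53 ± 0.41 in hsfa3). The annotation places AT5G43440 over 3 other genes, so its counts may hold reads of these or lack reads set aside as ambiguous.

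UGT84A3 stood at 47.5, 23 and 25.2 CPM at 52 h in Col and at 50.8, 23.1 and 28.4 CPM in the double mutant, from at most 14.3 and 15.3 CPM in NTC. UGT73C1 stood at 10.5, 7.34 and 8.84 CPM at 52 h in Col and at 8.66, 9.01 and 6.86 CPM in the double mutant, from at most 5.11 and 6.1 CPM. For both genes the libraries of Col and of the double mutant overlapped at 52 h. They were called at 52 h in hsfa2 (1.43 ± 0.45 and 1.15 ± 0.38, edgeR, adjusted p = 0.037 and 0.043) and not in hsfa3 (1.40 ± 0.45 and 0.72 ± 0.38, adjusted p = 0.0502 and 0.25), and this difference between the mutants was not called for either. AT4G15680 was called at 28 h in both single mutants and at 52 h in neither (1.06 ± 0.45 and 0.98 ± 0.45).

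ELI3-2 rested on 1 replicate at 52 h. Its libraries stood at 5.03, 0.326 and 0.208 CPM in Col, at 3.95, 0 and 0.69 CPM in hsfa2, at 1.54, 0.03 and 0.657 CPM in hsfa3 and at 1.85, 0.0597 and 0.423 CPM in the double mutant. The lowest 52 h library of hsfa2 was at 0, below its highest NTC library at 0.0313 CPM. Replicate 1 was the highest in each genotype, as it was at 28 h, with 20.3, 24.8, 42.2 and 27.6 CPM in Col, hsfa2, hsfa3 and the double mutant. ELI3-2 was called at 4 h and 28 h in both single mutants and at 52 h in neither (edgeR, adjusted p = 0.18 and 0.31), whereas DESeq2 called both at 52 h (adjusted p = 0.0048 and 0.0061). The NTC group held 0 counts in Col and in hsfa3, 1 in hsfa2 and 2 in the double mutant, so that its level at 4 h was at least 855-fold higher in Col and at least 675-fold higher in hsfa3.

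Among the other 9 members, LTP4, which encodes a lipid transfer protein of the cell wall, came late. In Col it stood at 0.985, 0.918 and 2.16 CPM at 4 h, at 10.9, 23.6 and 27.2 CPM at 28 h and at 7.22, 12.2 and 28.1 CPM at 52 h, from at most 0.507 CPM in NTC. The double mutant had 1.16, 0.8 and 1.23 CPM at 4 h, 3.32, 7.43 and 6.25 CPM at 28 h and 2.95, 2.03 and 6.34 CPM at 52 h, from at most 0.695 CPM. In both genotypes the 28 h libraries lay above all 4 h libraries, and the 52 h mean in the double mutant was 23.9% of that in Col. In the single mutants LTP4 rose from 4 h to 28 h by 3.51 ± 0.52 in hsfa2 (edgeR, adjusted p = 3.2e-07) and by 2.87 ± 0.51 in hsfa3 (adjusted p = 7.6e-06), and at 52 h it was 5.44 ± 0.66 and 3.05 ± 0.57 above NTC.

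BCB, a copper-binding cell wall protein, ABCB21, an auxin transporter, TIM17-1, a subunit of the mitochondrial import machinery, AT5G35735, a membrane protein annotated as auxin-responsive, and AT1G33600, a protein with leucine-rich repeats, were called in all 6 comparisons. BCB stood at 38.8, 4.82 and 14.2 CPM at 52 h in Col and at 19.8, 3.64 and 10.7 CPM in the double mutant, from at most 2.17 and 2.69 CPM in NTC, and replicate 2 was the lowest at 52 h in all 4 genotypes. Its change at 52 h was 3.45 ± 0.75 in hsfa2 (edgeR, adjusted p = 0.0023) and 3.29 ± 0.74 in hsfa3 (adjusted p = 0.0037), and both calls were lost without replicate 1 (edgeR, adjusted p = 0.065 and 0.076) or without replicate 3 (0.20 and 0.24) in every group. AT1G33600 stood at 103, 78.5 and 84.5 CPM at 52 h in Col and at 95.5, 67.8 and 85.7 CPM in the double mutant, from at most 39.6 and 32.5 CPM. ABCB21 stood at 19.5, 28.7 and 23.5 CPM in Col and at 17.4, 18.1 and 14.9 CPM in the double mutant, from at most 8.57 and 9.16 CPM. AT5G35735 stood at 82.9, 60.3 and 65.8 CPM in Col and at 69.9, 52.9 and 66.7 CPM in the double mutant, from at most 31.4 and 30.9 CPM. The 52 h libraries of Col and of the double mutant overlapped for BCB, AT1G33600 and AT5G35735, and those of ABCB21 did not. TIM17-1 did not exceed 3.03 CPM in any library.

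PTR5 itself stood at 10.4, 10.7 and 8.69 CPM at 52 h in Col and at 5.74, 5.52 and 4.29 CPM in the double mutant. AT1G72900, which carries a TIR domain as found in immune receptors, stood at 32.5, 6.66 and 13.3 CPM at 52 h in Col and at 38, 7.19 and 21.1 CPM in the double mutant, from at most 4.41 and 4.89 CPM, with replicate 2 again the lowest. It was called at 52 h in hsfa2 (2.38 ± 0.68, edgeR, adjusted p = 0.019) and hsfa3 (2.82 ± 0.68, adjusted p = 0.0072), and no longer without the replicate 2 NTC libraries of these mutants (adjusted p = 0.077 and 0.060). AT1G19530 was not called at 28 h or 52 h in either single mutant (0.26 ± 0.63 and -0.29 ± 0.62 at 52 h). Its replicate 2 NTC libraries held 19.2 CPM in hsfa2 and 34.8 CPM in hsfa3, against 2.12 to 7.65 CPM in the other 10. These are the same libraries in which the small heat shock protein genes were high, and their part in this result was not tested.

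Sequence next to the members was compared with that of other genes by counting motifs on both strands from 250 bases before to 50 bases after the annotated start (TAIR10.1). GAANNTTC was found for 7 of the 32 protein-coding members (21.9%), 18.9% of the 90 protein-coding genes not kept and 11.6% of 27562 protein-coding genes. TTCNNGAA was found for 9 members (28.1%), 22.2% of the genes not kept and 9.20% of all. A run of 3 alternating units at this spacing, which holds both pairs, was found for 4 members (12.5%), namely AT1G53540, HSP17.4, GolS1 and ERF2, for 4.44% of the genes not kept and for 0.486% of all. CCGAC, the core of the dehydration-responsive element, was found for 15.6% of members, 16.7% of genes not kept and 15% of all. ACGTG, the core of the ABA-responsive element, was found for 37.5%, 42.2% and 26.7%. None of the 8 repeat copies held TTCNNGAA in this window, and all 8 held TTCNNGAA when it began 500 bases before the start, a window chosen after seeing the data. These are descriptions of letters in a window, with no test.

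The limit of 0.8 on L cut through a continuous range. The members closest to it were ELI3-2 with 0.80 (0.8001 at 52 h in the double mutant), TIM17-1 with 0.81 (52 h in Col) and LTP4 with 0.83 (4 h in Col). Just outside lay GRP7, an RNA-binding protein of the clock, with 0.7991 at 4 h in Col, AT2G36690 with 0.7972 and AT2G38465 with 0.7945, both at 52 h in the double mutant. A limit of 0.6 would have kept 84 genes and a limit of 1 would have kept 26. An offset of 0.5 CPM in place of 1 would have kept 58 genes, and one of 2 CPM 28. Without replicate 1, 2 or 3 in every group, 38, 53 or 45 genes passed. Of the 40 members, 32, 38 and 36 were among them.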

How the data were processed

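RNA-seq was read from whole seedlings in 48 libraries. The authors extracted total RNA, sequenced paired reads on a DNBseq platform, mapped them to TAIR10 with STAR 2.5.1a and counted uniquely mapped pairs per gene, and the deposited values are these raw counts. The annotation version and the strand setting are not given in the sources used here. The 4 summary lines that name no gene were left out of library totals and held 7.20 to 9.38% of pairs. CPM and L were computed as given with the members.

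The members and the gene lists were chosen with earlier results of these data known. Tests used edgeR 4.0.16 (R 4.3.3) with 1 mean per group over all 48 libraries, protein-coding genes, a filter on low counts (filterByExpr), TMM library sizes and Benjamini-Hochberg adjustment. SE is the absolute log2 fold change over the square root of F. Calls for the repeat copies came from the same fit over all genes. The procedure was tested on simulated data. DESeq2 1.42.0, other filters, thresholds and normalizations, the 27 libraries outside the choice, the replicate number as a block and leaving out each replicate were alternatives. No pair of replicates of the same group was a duplicate (chi-square per degree of freedom of at least 11.7), and pairs from different groups were not compared in this way. The lowest correlation of log2 CPM within a group was 0.97. Intervals and floors cover counting error only.

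Genes singled out by rule were members on a list, the 12 with the largest L at 52 h in the double mutant, members with a difference between genotypes and those nearest to the limit. The other members were described after their values had been seen. Coordinates, names and sequences came from the RefSeq annotation of TAIR10.1, and repeats were aligned with blastn 2.17.0. Promoter and protein tables were not used here.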

Additional observations from a re-analysis of the deposited data

Results flagged for a closer look

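PTR5, the dipeptide transporter gene, was singled out because its induction at 4 h differed between the single mutants. It was smaller in hsfa2 than in hsfa3 by -2.02 ± 0.37 on the log2 scale (edgeR, adjusted p = 0.0019), with every hsfa2 library below every hsfa3 library at 4 h. The call was lost without replicate 2 or without replicate 3 in every group, where the differences were -1.89 and -1.99, and it held with DESeq2 (adjusted p = 1.6e-05). No group of 4 or more samples was available in which to look for single samples that stand apart.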

How the results depend on the processing

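Of 354 counts recomputed under an alternative, 332 stayed within 1.5 times their main value and 22 did not. The number of members was 84 with a limit on L of 0.6 and 26 with a limit of 1. Leaving out each replicate in turn in every group, induced protein-coding members numbered 18 to 31 in hsfa2 at 28 h, 10 to 24 in hsfa2 at 52 h and 9 to 24 in hsfa3 at 52 h, those lower at 52 h than at 28 h numbered 0 to 5 in hsfa2 and 0 to 7 in hsfa3, and those differing between the single mutants at 4 h numbered 0 to 1. In these fits 3 to 8 repeat copies were induced in hsfa2 at 52 h, and 4 to 8 in hsfa2 and 3 to 8 in hsfa3 were lower at 28 h than at 4 h. The lowest counts came without replicate 3, and came equally without replicate 2 for the copies in hsfa3 and for the difference between the single mutants at 4 h. These fits have fewer libraries, and the share of all genes called in them was not computed. With an adjusted p below 0.01, 2 members in hsfa2 and 1 in hsfa3 were lower at 52 h than at 28 h, and 5 copies in hsfa3 were lower at 28 h than at 4 h. With the 27 libraries outside the choice alone, 2 members were lower at 52 h than at 28 h in each mutant. The share over all genes was not computed for these settings either. The log2 fold change of AT1G07400 at 52 h in hsfa2 was -0.15 to 2.19 when each replicate was left out, and -0.15 was the value without replicate 1. The cause of these changes was not tested. Of 506 values of single genes, 454 kept their call, 35 lost it, 16 gained it and 1 turned its direction.

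Replicate numbers did not meet the strict rule that every one of the 360 pairs of same-numbered libraries correlate above 0.1. Correlations of their deviations from the group means ran from -0.38 to 0.76, and 75% were above 0.1. The median was 0.30, against -0.10 for pairs with different numbers. Leaving out Col at 28 h, 80% were above 0.1. Failing the rule thus does not show that the libraries were unpaired, and the main fit did not use the replicate number. With the replicate number as a block, 24 and 25 protein-coding members were induced at 52 h in hsfa2 and hsfa3. The level at 4 h differed for 1 member, GolS4, between the double mutant and hsfa2 and for 2 against hsfa3. In hsfa2 1 repeat copy was lower at 52 h than at 28 h. The share of all genes called in the blocked fit was not computed, so these counts cannot be read as particular to the members. Of the 48 libraries, 42 correlated best with their own number, which is a hint from the data and not part of the design. The depth limits values near the floor of 3 counts, as for the repeat copies and ELI3-2 in NTC.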

Other observations

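Among the members, the libraries of a replicate number tended to stand high or low together across genotypes. At 52 h replicate 1 was the highest library of the summed repeat copies in all 4 genotypes, at 81.3 CPM (Col), 51.5 CPM (hsfa2), 74.7 CPM (hsfa3) and 39.9 CPM (hsfa2 hsfa3), and replicate 2 was the lowest library of STZ, BCB and AT1G72900 in all 4. Col at 28 h stood apart. There STZ was highest in replicate 2 (18.9 CPM), but in replicate 3 in hsfa2 (17.7 CPM), hsfa3 (17.0 CPM) and the double mutant (17.3 CPM). BCB in replicate 2 held 77.7 CPM in Col, against 10.9, 15.9 and 19.4 CPM in these mutants. Over all genes, replicates 2 and 3 of Col at 28 h correlated best with numbers 1 and 2. The labels do not say whether a number marks a shared day or batch. Neither this nor the numbering of Col at 28 h was tested.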
